A study of Mus musculus with 32 samples.

Results

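The genes described here are Esrra, the gene of the nuclear receptor ERR-alpha, and 7 regulators that act with it in building mitochondria: Ppargc1b, Pprc1, Nrf1, Gabpa, Tfam, Tfb1m and Tfb2m. They were chosen by name, with earlier results of these data known, and they are 8 of the 24302 genes listed in every count file. All 8 passed the filter on low counts, which kept 12332 genes. The study measured poly(A) RNA of mouse CD4+ T cells in 32 libraries, 8 groups of 4, to learn how Nur77 deficiency and 2 compounds alter gene expression on activation. Spleens, and lymph nodes from inguinal and axillary sites, of C57BL/6J mice supplied the cells. In each genotype, Nur77KO (called KO-labelled here) and WT, the groups were stimulated cells given XCT790 (10 µg/ml), stimulated cells given the compound coded CompA (10 µg/ml), stimulated cells without a compound (aCD3 and aCD28, 12 h) and unstimulated cells, which the labels call control. XCT790 is an inverse agonist of ERR-alpha. No structure is given for CompA. The labels give no age, no vehicle for cells without a compound, no account of how the Nur77 (Nr4a1) allele was made or in which cells it is lost, and no word on whether the 4 replicates are separate mice. The protocol text describes stimulation for all cells, without an exception for the control samples. All p-values therefore measure the spread between these libraries, which may be technical.

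ERR-alpha is an orphan nuclear receptor, active without a known natural hormone, and it drives genes of oxidative phosphorylation together with coactivators of the PGC-1 family, among them PGC-1beta (from Ppargc1b) and PRC (from Pprc1). NRF1 and GABP, whose DNA-binding subunit comes from Gabpa, activate nuclear genes of the respiratory chain and of the factors that maintain and transcribe mitochondrial DNA. Of these, TFAM packages mitochondrial DNA and opens its promoters, TFB2M starts transcription with the mitochondrial RNA polymerase, and TFB1M methylates the RNA of the small mitochondrial ribosomal subunit. Activated T cells enlarge their mitochondria before they divide.

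Libraries held 16 to 23.7 megacounts in genes, and 13060 to 15148 genes had a count. KO-labelled cells held no less RNA of Nr4a1, the targeted gene, than WT cells did in any condition. It averaged 332 ± 128 CPM (TMM-scaled counts relative to the library total) in KO-labelled and 166 ± 32.7 CPM in WT stimulated cells (SD, n = 4 each), and such counts cannot tell whether a protein is made. All 8 T cell markers examined were detected, with a summed level of 3720 to 4670 CPM across group means. The sum of 17 myeloid and dendritic markers averaged 20.7 CPM (range 15.3 to 31.4) in KO-labelled stimulated, 1220 CPM (771 to 1740) in the unstimulated KO-labelled group, 682 CPM (472 to 1130) in WT stimulated and 2410 CPM (1810 to 2900) in WT unstimulated cells. With a compound it averaged at most 29 CPM. A set of 145 genes was picked that had at least 5 CPM in WT unstimulated cells and at most 2 percent of that in the mean of each stimulated group other than WT stimulated. Their sum stood at 0.162 to 0.465 of its WT unstimulated level in the WT stimulated libraries, while the ratio in the other stimulated libraries, at most 0.00564, follows from the choice. In an alternative called the unstimulated share subtracted, this ratio times the mean WT unstimulated profile was taken from the counts of each WT stimulated library. It left 53.8 to 83.9 percent of their counts. The step widens the WT difference between stimulated and unstimulated libraries by construction. It thereby also lowers the WT differences of the compounds from stimulated cells for genes that rose with stimulation. For genes that fell it raises them. B cell markers summed highest in replicate 2 of each KO-labelled group, for example to 243 CPM against 25.8 to 41.4 CPM in the other KO-labelled stimulated libraries. In bulk RNA, fewer cells of a type and less RNA per cell cannot be told apart.

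Short promoter stretches are shown for the 4 genes whose windows carry a searched motif. Of these, Tfb2m, Tfam and Gabpa rose with stimulation and Esrra did not pass. Pprc1 and Tfb1m, which rose too, and Nrf1, which did not rise, carry none. RefSeq (GRCm38.p6) gave windows for 7 of the 8 genes. The 250 bases before the start used for each window were searched on both strands. Each line has 30 bases, 5′ to 3′ on the strand of the gene, with the motif in capitals.
Esrra, chr19:6921824-6921853, minus strand: ccccctgttttGCATGCGCaggccggcccc
Tfb2m, chr1:179546287-179546316, minus strand: gagcctaggCGGAAGCGGAAGcgagtgagc
Tfam, chr10:71238073-71238102, minus strand: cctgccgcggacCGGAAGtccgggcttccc
Gabpa, chr16:84835019-84835048, plus strand: ggagggtaagtgCTTCCGggtccctcagct
The Esrra stretch holds the NRF1 core GCATGCGC at positions -34 to -27 from the start, a motif in 2.26 percent of 32851 such windows. The ETS-type GABP site CGGAAG occurs in 13.6 percent of windows. It stands side by side at -31 to -26 and -25 to -20 in the Tfb2m window and at -46 to -41 in the Tfam window. Read on the other strand as CTTCCG, it stands at -93 to -88 in the Gabpa window. Positions count from the start used for each window, and all 4 windows overlap the annotated span of the gene itself. By the gene coordinates given below, the Esrra, Tfam and Gabpa stretches lie inside the gene. The Tfb2m stretch crosses the upstream end of its gene. Neither motif was found in the windows of Pprc1, Nrf1 or Tfb1m. The ERR element AAGGTCA (4.08 percent of windows) and the E-box CACGTG (6.02 percent) were found in no window of the 7 genes. A match is a description of letters and not a measured binding site.

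Per kilobase of the longest coding transcript, the 8 transcripts spanned a wide range of levels. In KO-labelled stimulated cells Tfam was highest at 31.6 CPM per kb, followed by Pprc1 at 27.1 and Gabpa at 25.8. Esrra at 15.7 and Nrf1 at 15.6 CPM per kb formed the middle, then Tfb2m at 10.8 and Tfb1m at 10.6, and Ppargc1b was lowest at 1.17 CPM per kb. The order in WT stimulated cells differed in that Gabpa (26.6 CPM per kb) stood above Pprc1 (23.3). In KO-labelled unstimulated cells Gabpa (19 CPM per kb), Tfam (18.4), Nrf1 (16.4) and Esrra (15.9) led, and Pprc1 stood lower at 8.33 CPM per kb. Ppargc1a, the best known coactivator of ERR-alpha, had at most 3 counts in any library. The paralog Esrrb had no count, and Esrrg had at most 6 counts in a library.

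**Figure D1:**
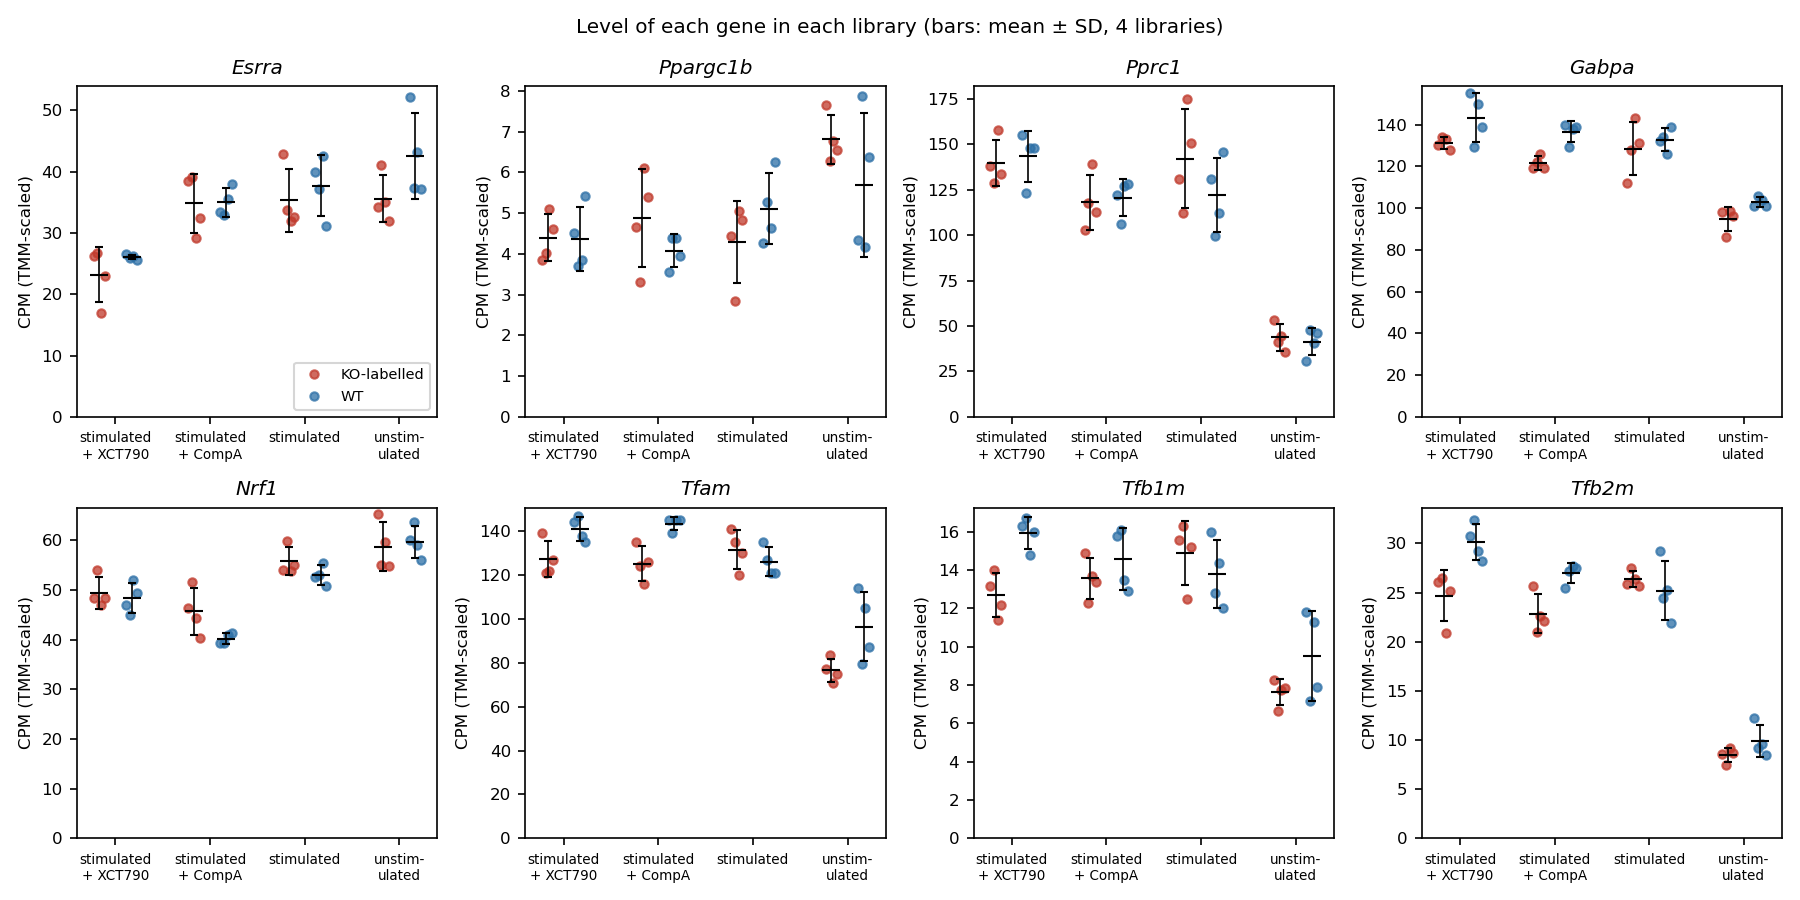
Levels of the 8 transcripts in every library, in TMM-scaled CPM on a linear axis that starts at 0, with 1 panel per gene. Points are libraries and bars are means ± SD (n = 4); conditions run XCT790, CompA, stimulated and unstimulated, with KO-labelled left of WT. Pprc1 and Tfb2m stand far above their unstimulated levels in all stimulated groups, and Esrra is lowest in the XCT790 groups.

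Stimulation for 12 h raised 5 of the 8 genes in both genotypes. Pprc1 and Tfb2m rose most, by 2.56- to 3.26-fold, and Tfam, Tfb1m and Gabpa rose less, while Esrra itself passed the test in neither genotype. Of the 8, 6 passed in KO-labelled cells, beside 81.7 percent of all 12332 genes tested, and 6 passed in WT cells, beside 73.3 percent of all genes. The shares of the members are thus close to those of all genes. The median log2 fold change of the members was 0.61 in KO-labelled and 0.38 in WT cells, beside -0.07 and -0.11 over all genes. With the unstimulated share subtracted, WT stimulated cells averaged 154 CPM for Pprc1 and 31.7 CPM for Tfb2m, against 122 and 25.2 CPM as deposited. The myeloid marker sums given above also fell with stimulation in both genotypes, and their part in these changes was not tested.

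Esrra (chromosome 19, 6910977 to 6922048) had 42.9, 33.7, 32 and 32.6 CPM in KO-labelled stimulated replicates 1 to 4, against 34.3, 41, 35 and 32 CPM in KO-labelled unstimulated cells. It had 40, 37.1, 42.6 and 31.1 CPM in WT stimulated cells, against 52.2, 37.4, 43.2 and 37.2 CPM in WT unstimulated cells. The libraries overlapped in both genotypes. The log2 fold change was -0.01 in KO-labelled cells (95 percent interval -0.28 to 0.26, edgeR adjusted p = 0.94) and -0.17 in WT cells (-0.44 to 0.1, adjusted p = 0.24). These values depend on the scaling. With library totals the change was -0.35 in KO-labelled (adjusted p = 0.00353) and -0.25 in WT cells (0.0353), where the median of all genes moved to -0.41 and -0.19. With upper-quartile factors it was -0.27 in KO-labelled (adjusted p = 0.0501) and -0.4 in WT cells (0.00594), where that median was -0.33 in both.

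The coactivator genes moved apart. Pprc1 (chromosome 19, 46056526 to 46072909), which encodes the growth-induced coactivator PRC, had 131, 112, 175 and 151 CPM in KO-labelled stimulated cells, against 53.3, 41.3, 44.3 and 35.9 CPM in KO-labelled unstimulated cells. In WT it had 131, 99.5, 112 and 146 CPM after stimulation, against 30.9, 47.6, 40.7 and 46.3 CPM without. Every stimulated library lay above every unstimulated library, at 3.26-fold in KO-labelled (log2 SE 0.15, edgeR adjusted p = 1.7e-11) and 2.95-fold in WT cells (SE 0.15, adjusted p = 2.4e-10). Ppargc1b (chromosome 18, 61291445 to 61400756) encodes PGC-1beta. It had 4.45, 2.84, 5.05 and 4.84 CPM in KO-labelled stimulated cells, against 7.66, 6.28, 6.77 and 6.54 CPM in KO-labelled unstimulated cells. These libraries did not overlap, and the level fell 1.58-fold (log2 SE 0.2, adjusted p = 0.0037). In WT it had 4.27, 5.28, 4.64 and 6.25 CPM after stimulation, against 4.33, 7.87, 4.17 and 6.39 CPM without. The WT libraries overlapped, with a log2 fold change of -0.16 (interval -0.57 to 0.25, adjusted p = 0.48). The difference between the genotypes in this change did not pass either (log2 difference -0.5, interval -1.08 to 0.08, adjusted p = 0.17).

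The DNA-binding activators Gabpa and Nrf1 moved by at most 1.36-fold. Gabpa (chromosome 16, 84834891 to 84863783) had 112, 128, 143 and 131 CPM in KO-labelled stimulated cells, against 98, 86, 98.4 and 96.2 CPM in the unstimulated KO-labelled libraries, a rise of 1.36-fold (log2 SE 0.07, edgeR adjusted p = 7.8e-07). In WT it had 132, 134, 126 and 139 CPM after stimulation, against 101, 106, 104 and 101 CPM without, and rose 1.29-fold (SE 0.07, adjusted p = 2e-05). Stimulated and unstimulated libraries did not overlap in either genotype. The KO-labelled call was lost with library totals (log2 0.11, adjusted p = 0.235) and the WT call with upper-quartile factors (0.14, adjusted p = 0.0527). Gabpa shares 182 exon bases with Atp5j on the opposite strand, and whether counting used strand is not stated. Nrf1 (chromosome 6, 30047985 to 30153458) had 54.1, 59.9, 53.9 and 55.1 CPM in KO-labelled stimulated cells, against 65.3, 55, 59.7 and 54.8 CPM in KO-labelled unstimulated cells. These libraries overlapped (log2 -0.07, interval -0.23 to 0.08, adjusted p = 0.35). With library totals and upper-quartile factors the KO-labelled change was -0.41 (adjusted p = 3.9e-05) and -0.33 (8.59e-05), the same as the median of all genes, which was -0.07, -0.41 and -0.33 in the 3 scalings. In WT it had 52.7, 53.1, 55.5 and 50.8 CPM after stimulation, against 60, 63.7, 59.1 and 56 CPM without, with no overlap. It fell by 0.17 on the log2 scale (SE 0.07, adjusted p = 0.04). That call was lost in a fit of the 2 groups alone (-0.1, adjusted p = 0.342), without WT unstimulated replicate 1 (-0.08, adjusted p = 0.391), and without WT stimulated replicate 1 (adjusted p = 0.0512) or 4 (adjusted p = 0.112).

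The factors that act inside mitochondria rose in both genotypes. Tfb2m (chromosome 1, 179528052 to 179546305) had 25.9, 27.5, 26.4 and 25.7 CPM in KO-labelled stimulated cells, against 8.56, 7.42, 9.21 and 8.68 CPM in KO-labelled unstimulated cells. It had 29.2, 24.4, 25.3 and 21.9 CPM in WT stimulated cells, against 12.2, 9.2, 9.56 and 8.51 CPM in WT unstimulated cells. The lowest stimulated library was well above the highest unstimulated one, at 3.11-fold in KO-labelled (log2 SE 0.1, edgeR adjusted p = 2.4e-14) and 2.56-fold in WT cells (SE 0.1, adjusted p = 3.3e-12). Tfam (chromosome 10, 71225468 to 71238328) had 141, 135, 120 and 130 CPM in KO-labelled stimulated cells, against 77.4, 83.4, 70.9 and 74.7 CPM in KO-labelled unstimulated cells. It had 135, 127, 121 and 121 CPM in WT stimulated cells, against 114, 79.5, 105 and 87.4 CPM in WT unstimulated cells. The WT unstimulated libraries were uneven, yet none reached a stimulated one. Tfam rose 1.72-fold in KO-labelled (SE 0.08, adjusted p = 1.8e-09) and 1.31-fold in WT cells (SE 0.08, adjusted p = 0.0002), and the WT call was lost with upper-quartile factors (log2 0.16, adjusted p = 0.0754). Tfb1m (chromosome 17, 3519250 to 3557796) averaged 14.9 ± 1.66 CPM after stimulation and 7.64 ± 0.686 CPM before it in KO-labelled cells (SD, n = 4 each), a rise of 1.95-fold (SE 0.13, edgeR adjusted p = 1.8e-07). In WT it averaged 13.8 ± 1.75 CPM after stimulation and 9.54 ± 2.36 CPM without, a rise of 1.45-fold (SE 0.13, edgeR adjusted p = 0.00077). Its libraries did not overlap in either genotype, and it shares 142 exon bases with Tiam2 on the opposite strand.

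Esrra, the gene of the receptor that XCT790 binds, was lower with XCT790 in both genotypes, and edgeR called no other member. In KO-labelled cells Esrra had 26.2, 26.7, 16.9 and 22.9 CPM with XCT790, against the 32 to 42.9 CPM of stimulated cells without it. In WT it had 26.5, 25.9, 26.2 and 25.6 CPM with XCT790, against 31.1 to 42.6 CPM without. All 8 XCT790 libraries were below all 8 stimulated libraries. The fall was 1.53-fold in KO-labelled (log2 -0.61, SE 0.13, edgeR adjusted p = 0.004) and 1.45-fold in WT cells (log2 -0.53, SE 0.13, adjusted p = 0.003). This 1 call of 8 stands beside 11.3 percent of all genes called in KO-labelled and 28.6 percent in WT cells. The myeloid marker sum also differed in WT, 682 CPM in stimulated cells and 11.9 CPM with XCT790, and its part was not tested. With the unstimulated share subtracted, Esrra averaged 35.6 CPM in WT stimulated cells, and 835 genes were called in place of 3527. Over 16 alternatives the WT Esrra change was -0.61 to -0.46, with an adjusted p of at most 0.046 (edgeR or DESeq2). The KO-labelled call did not pass in a fit of the 2 groups alone (adjusted p = 0.0669). Libraries of the same run (4 consecutive library numbers) varied together in KO-labelled cells, and with the run as a block 2642 genes were called in place of 1390 there, with Esrra still the only member. Esrra shares 73 exon bases with Trmt112 on the opposite strand. Its level with XCT790 was also below the unstimulated level, by 0.62 on the log2 scale in KO-labelled (adjusted p = 0.00014) and by 0.7 in WT cells (adjusted p = 2.5e-05).

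The other 7 genes did not pass with XCT790 in edgeR, while DESeq2 also called Tfb2m in WT (log2 0.29, adjusted p = 0.0141) and Nrf1 in KO-labelled cells (-0.22, adjusted p = 0.0204). Tfb2m came nearest in WT, at 30.8, 32.4, 29.2 and 28.2 CPM with XCT790 against 21.9 to 29.2 CPM without (log2 0.26, interval 0.05 to 0.46, edgeR adjusted p = 0.054). In KO-labelled cells it had 26.1, 26.5, 20.9 and 25.2 CPM against 25.7 to 27.5 CPM (log2 -0.1, interval -0.3 to 0.11, adjusted p = 0.59). The libraries overlapped in both. WT Tfb2m was called without WT stimulated replicate 1 (adjusted p = 0.0145), without WT XCT790 replicate 4 (0.0396), with no filter on low counts (0.0493), with at least 1 CPM in 4 libraries (0.0425) and with the run as a block (0.0312). With the unstimulated share subtracted its direction turned (log2 -0.08, adjusted p = 0.728), at a mean of 31.7 CPM in WT stimulated cells. That step lowers this difference by construction, so the turn cannot show a direction. Nrf1 was lower by 0.17 on the log2 scale in KO-labelled cells (adjusted p = 0.13) and by 0.13 in WT cells (adjusted p = 0.18), and with library totals the WT value passed (-0.22, adjusted p = 0.0394). Set against unstimulated cells, 8 of 8 members were called in KO-labelled XCT790 cells (79.1 percent of all genes) and 7 of 8 in WT XCT790 cells (79.1 percent of all genes). In both, Pprc1, Gabpa, Tfam, Tfb1m and Tfb2m were higher, although the Gabpa call in KO-labelled cells (log2 0.47) was lost with library totals (0.16, adjusted p = 0.109). Ppargc1b in WT (log2 -0.38, adjusted p = 0.084) was called lower in 6 of 15 alternatives: library totals (-0.57, adjusted p = 0.0248), upper-quartile factors (-0.64, 0.00584), DESeq2 (-0.45, 0.0435), the run as a block (-0.36, 0.0452), and without unstimulated replicate 3 (0.0206) or XCT790 replicate 4 (0.0294).

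With CompA it was Nrf1 that was lower. It had 46.4, 51.6, 44.3 and 40.4 CPM in KO-labelled cells with CompA, against 53.9 to 59.9 CPM in stimulated cells without it. In WT it had 39.3, 39.3, 40.9 and 41.4 CPM with CompA, against 50.8 to 55.5 CPM without. No library with CompA reached the lowest stimulated library. The fall was 1.22-fold in KO-labelled (log2 -0.29, SE 0.07, edgeR adjusted p = 0.0068) and 1.32-fold in WT cells (log2 -0.4, SE 0.07, adjusted p = 0.00011). Nrf1 was the 1 member of 8 called by edgeR, beside 19.3 percent of all genes in KO-labelled and 32.8 percent in WT cells. The myeloid marker sum also differed in WT, 682 CPM in stimulated cells and 10.1 CPM with CompA, and its part was not tested. With the unstimulated share subtracted, Nrf1 averaged 50.1 CPM in WT stimulated cells, and 2675 genes were called in place of 4047. Over 16 alternatives the WT Nrf1 change was -0.47 to -0.33. The KO-labelled call did not pass in a fit of the 2 groups alone (log2 -0.3, adjusted p = 0.102). With the run as a block 3635 genes were called in KO-labelled cells in place of 2378, and Nrf1 remained the only member.

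Esrra had 38.5, 39.2, 29.2 and 32.4 CPM with CompA in KO-labelled cells and 33.4, 32.9, 35.6 and 38 CPM in WT cells. These libraries overlapped those of stimulated cells. The log2 fold change was -0.02 in KO-labelled (interval -0.29 to 0.25, edgeR adjusted p = 0.94) and -0.11 in WT cells (interval -0.38 to 0.16, adjusted p = 0.57). Tfam in WT had 145, 139, 145 and 145 CPM with CompA, above the 121 to 135 CPM of stimulated cells, but the difference did not pass in edgeR (log2 0.19, interval 0.02 to 0.36, adjusted p = 0.079). It passed in DESeq2 (adjusted p = 0.036), with the run as a block (0.0336) and in a fit of the 2 groups alone (0.0411). It was 0.04 with the unstimulated share subtracted (adjusted p = 0.82), a step that lowers this difference by construction. Set against unstimulated cells, 7 of 8 members were called in KO-labelled (78.4 percent of all genes) and 7 of 8 in WT cells with CompA (78.3 percent). In both these comparisons Ppargc1b and Nrf1 were lower and the same 5 genes as with XCT790 were higher, although the Gabpa call in KO-labelled cells (log2 0.36) was lost with library totals (0.08, adjusted p = 0.389) and upper-quartile factors (0.12, 0.0882). The Ppargc1b calls (log2 -0.48 in KO-labelled, adjusted p = 0.031, and -0.49 in WT, adjusted p = 0.032) each depended on single libraries. In KO-labelled cells the adjusted p was 0.0825 without unstimulated replicate 1, 0.0625 without CompA replicate 1, 0.121 without CompA replicate 2 and 0.094 without all 4 libraries of KO-labelled replicate 2. In WT it was 0.154 without unstimulated replicate 2, 0.0642 without unstimulated replicate 4, 0.0669 without CompA replicate 1 and 0.0513 without CompA replicate 4. Esrra in WT (log2 -0.28, adjusted p = 0.056) was called lower than in unstimulated cells in 12 of 15 alternatives. These were library totals (-0.42, adjusted p = 0.000726), upper-quartile factors (-0.51, 0.000554), DESeq2 (-0.35, 0.0166), the run as a block (0.0229), a fit of the 2 groups alone (0.0354), no filter on low counts (0.0324), at least 1 CPM in 4 libraries (0.0313), and omission of unstimulated replicate 2, 3 or 4 (0.0146, 0.0447 and 0.0143) or CompA replicate 3 or 4 (0.0397 and 0.0286). In KO-labelled cells the Esrra difference of -0.03 became -0.32 with library totals (adjusted p = 0.00798).

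The compounds were given at the same mass per volume and for the same time, and their groups are set against each other here. Without a structure for CompA, molar doses and strengths cannot be compared. Esrra was lower with XCT790 than with CompA, by 0.59 on the log2 scale in KO-labelled cells (SE 0.13, edgeR adjusted p = 0.012) and by 0.42 in WT cells (SE 0.13, adjusted p = 0.043), with no overlap of libraries in either genotype. In KO-labelled cells it was the 1 member called, beside 3.24 percent of all genes, and the call did not pass in a fit of the 2 groups alone (adjusted p = 0.101). In WT, 2 members were called, beside 9.41 percent of all genes, the other being Nrf1, which was higher with XCT790 than with CompA (log2 0.26, SE 0.07, adjusted p = 0.022). Both WT calls were close to the threshold. That of Esrra was lost without WT XCT790 replicate 1, 2, 3 or 4 (adjusted p = 0.0686, 0.0508, 0.0761 and 0.0802) or CompA replicate 1, 3 or 4 (0.0519, 0.069 and 0.12), and with no filter on low counts (0.0585). That of Nrf1 was lost without CompA replicate 1 or 2 (0.0654 and 0.0556) or XCT790 replicate 3 or 4 (0.0877 and 0.058). In KO-labelled cells the Nrf1 difference was 0.11 (interval -0.04 to 0.26, adjusted p = 0.55). Runs paired the libraries in both genotypes here, and with the run as a block 995 genes were called in place of 400 in KO-labelled and 2046 in place of 1161 in WT cells, with the same member calls. For the other 6 genes, the intervals of the difference between compounds included 0 in both genotypes, and Pprc1 in WT passed in a fit of the 2 groups alone (log2 0.26, adjusted p = 0.0391).

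**Figure D2:**
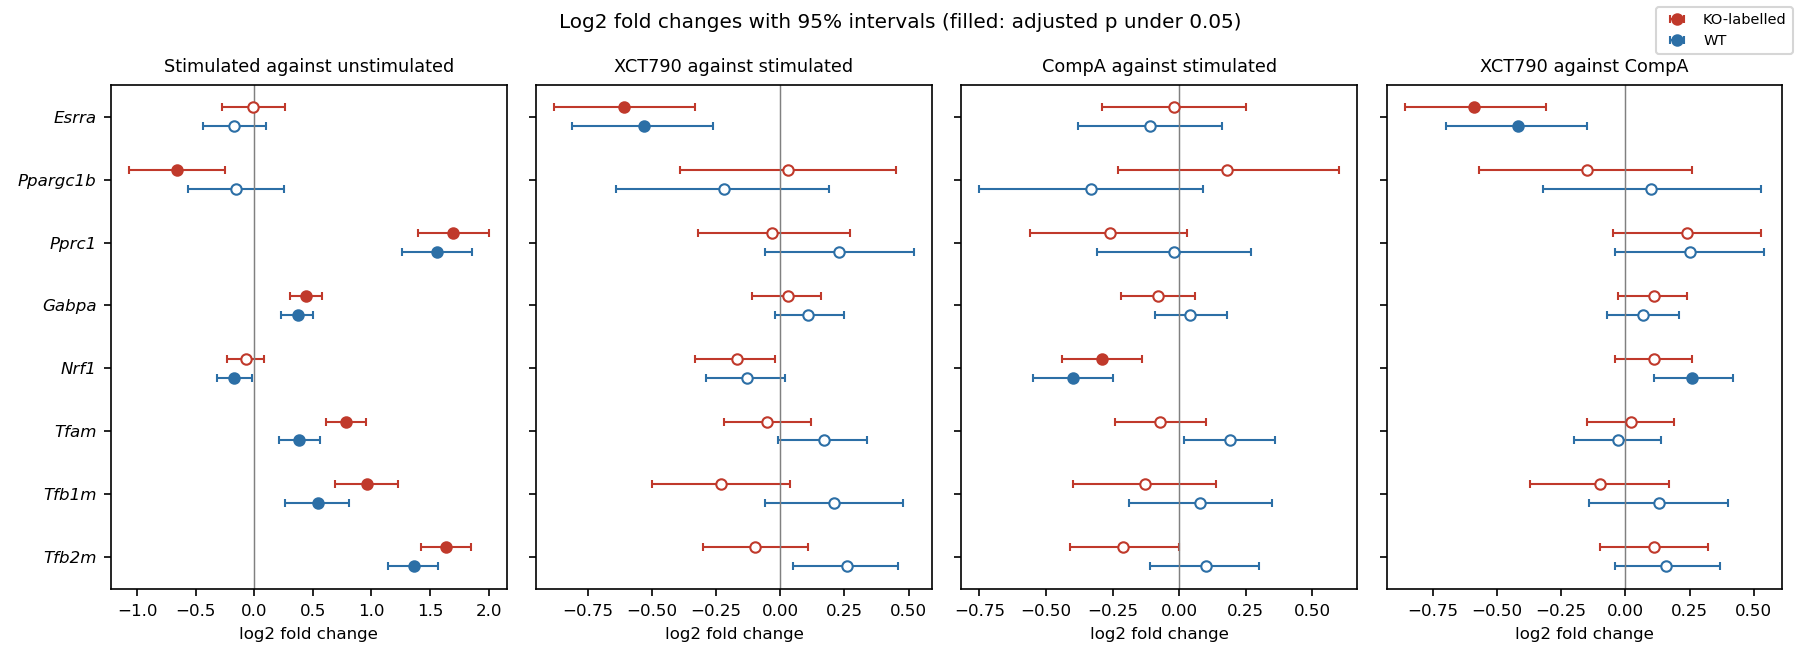
Log2 fold changes of the 8 genes with 95 percent intervals in 4 comparisons, stimulated against unstimulated, XCT790 against stimulated, CompA against stimulated and XCT790 against CompA. KO-labelled is drawn above WT and filled points passed at an adjusted p under 0.05. Esrra is called lower with XCT790, Nrf1 lower with CompA, and 5 genes higher with stimulation. Also called lower with stimulation are Ppargc1b in KO-labelled and Nrf1 in WT cells. Between the compounds, Esrra is called lower with XCT790 in both genotypes and Nrf1 higher with XCT790 in WT.

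Between the genotypes, only Tfam in unstimulated cells passed. It had 77.4, 83.4, 70.9 and 74.7 CPM in KO-labelled and 114, 79.5, 105 and 87.4 CPM in WT unstimulated cells, with an overlap of 1 WT library. The difference was -0.33 on the log2 scale (SE 0.08, edgeR adjusted p = 0.0042), and this 1 member called of 8 stands beside 36.1 percent of all genes. The call was lost with library totals (-0.11, adjusted p = 0.162), in a fit of the 2 groups alone (-0.25, adjusted p = 0.119) and without WT unstimulated replicate 1 (-0.19, adjusted p = 0.0983). Without WT unstimulated replicate 2, Tfb1m was called lower as well (adjusted p = 0.00989), and without WT unstimulated replicate 4 both Tfb1m (adjusted p = 0.0253) and Tfb2m (adjusted p = 0.0353) were. The myeloid marker sums given above differ between these groups, 1220 against 2410 CPM, and their part in the result was not tested. Of the remaining members, Esrra differed by -0.26 (interval -0.53 to 0.01, adjusted p = 0.12), with 35.6 ± 3.85 CPM in KO-labelled and 42.5 ± 7.03 CPM in WT unstimulated cells (SD, n = 4 each).

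In stimulated cells no member was called between the genotypes by edgeR, and none had an unadjusted p under 0.05, beside 25.2 percent of all genes called. DESeq2 also called none. With XCT790 edgeR called none (9.51 percent of all genes), 2 had an unadjusted p under 0.05 and DESeq2 called 1, Tfb2m. Of those 2, Tfb1m had the larger p and ranked 1950 among the 12332 genes tested. The shares of all genes at the unadjusted threshold and by DESeq2 are not given here. Tfb2m had 26.1, 26.5, 20.9 and 25.2 CPM in KO-labelled and 30.8, 32.4, 29.2 and 28.2 CPM in WT cells with XCT790 (log2 -0.29, interval -0.5 to -0.08, edgeR adjusted p = 0.065). All KO-labelled libraries were below the WT ones. With CompA edgeR called none (7.7 percent of all genes), 4 had an unadjusted p under 0.05 and DESeq2 called 1, Gabpa. Of those 4, Tfb2m had the largest p and ranked 1976 among the 12332 genes tested. Gabpa had 119, 122, 126 and 119 CPM in KO-labelled and 140, 129, 138 and 139 CPM in WT cells with CompA (log2 -0.17, interval -0.3 to -0.03, edgeR adjusted p = 0.13), again without overlap. With library totals Nrf1 passed there (0.27, adjusted p = 0.0336). Every run of library numbers holds 1 genotype, so the run and the genotype cannot be told apart.

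The rise of Tfam with stimulation was larger in KO-labelled than in WT cells, by 0.39 on the log2 scale (SE 0.12, interval 0.15 to 0.64, edgeR adjusted p = 0.013). It was the 1 member of 8 whose response to stimulation differed, beside 33.7 percent of all genes. The call was lost with library totals (0.13, adjusted p = 0.224), in a fit of the 4 groups alone (0.35, adjusted p = 0.104) and without WT unstimulated replicate 1 (0.26, adjusted p = 0.0777). It was also lost once the unstimulated share was subtracted from the WT stimulated libraries (0.23, adjusted p = 0.209), which raised their mean Tfam level to 139 CPM, against 126 CPM as deposited. That step widens the WT rise by construction, so the lost call cannot show whether the genotypes differ. The difference for Tfb1m was 0.42 (adjusted p = 0.079), and it passed with the run as a block (0.41, adjusted p = 0.0476) and without WT unstimulated replicate 2 (adjusted p = 0.00981) or 4 (0.0221), WT stimulated replicate 1 (0.0434) or KO-labelled stimulated replicate 3 (0.0412). Tfb2m passed without WT unstimulated replicate 4 (0.4, adjusted p = 0.0309) and was -0.07 with the share subtracted (adjusted p = 0.787). For the response to XCT790, edgeR called no member as different between the genotypes (24.7 percent of all genes), 2 had an unadjusted p under 0.05, and DESeq2 called 2, Tfb1m and Tfb2m. At least those 24.7 percent of all genes were also under 0.05 unadjusted. In edgeR, Tfb1m passed without WT stimulated replicate 1 (0.0388) or KO-labelled stimulated replicate 3 (0.0397), and Tfb2m without WT stimulated replicate 1 (0.0214), WT XCT790 replicate 3 (0.0458) or 4 (0.0349) or KO-labelled XCT790 replicate 1 (0.0381). With the run as a block Tfb1m (-0.45, adjusted p = 0.0364) and Tfb2m (-0.36, 0.0376) passed, although the runs paired these libraries only in KO-labelled cells; with the share subtracted no member passed. The Esrra response differed by -0.08 (interval -0.46 to 0.31, adjusted p = 0.8). For CompA edgeR likewise called none (21.6 percent of all genes), 2 had an unadjusted p under 0.05, and DESeq2 called Tfam and Tfb2m. Here too at least the 21.6 percent of all genes were under 0.05 unadjusted. Tfam and Tfb2m both passed in edgeR without KO-labelled CompA replicate 1 (adjusted p = 0.0476 and 0.043), and Tfam with the run as a block (-0.26, adjusted p = 0.0497). The Nrf1 response differed by 0.11 (interval -0.1 to 0.33, adjusted p = 0.48).

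The wider pathway was described through 8 gene lists that hold none of the 8 members. With stimulation 39.3 percent of all genes rose and 42.4 percent fell in KO-labelled cells, and 34.5 percent rose and 38.8 percent fell in WT cells. Of 12 tested partners of ERR and PGC-1, 1 rose and 8 fell in KO-labelled cells and 1 rose and 7 fell in WT cells, with median log2 fold changes of -1.24 and -0.49. Kat2a, the acetyltransferase GCN5 that acts on PGC-1 coactivators, was the one that rose, to 96.6 ± 14.8 CPM in KO-labelled stimulated cells, against 63.1 ± 5.17 CPM unstimulated (edgeR adjusted p = 2.5e-07). The coactivator gene Ncoa1 fell to 11.1 ± 3.28 CPM in KO-labelled stimulated cells, against 56.1 ± 8.17 CPM unstimulated (adjusted p = 4.8e-09), and the corepressor gene Ncor1 to 82.2 ± 27.1 against 254 ± 56 CPM (adjusted p = 8.9e-06). Among 20 partners of GABP and upstream regulators, 4 rose and 11 fell in KO-labelled and 4 rose and 9 fell in WT cells, with medians of -0.2 and -0.26. Gabpb1, the partner subunit of Gabpa, rose to 102 ± 15.3 CPM in KO-labelled stimulated cells, against 53.1 ± 1.48 CPM unstimulated (adjusted p = 2.3e-10). Myc, a growth regulator upstream of many mitochondrial genes, rose to 484 ± 61.4 against 65.2 ± 10.1 CPM (adjusted p = 6.4e-17).

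The lists of mitochondrial machinery held more genes that rose than fell in both genotypes. Of 15 genes for mitochondrial DNA replication and the nucleoid, 10 rose and 4 fell in each genotype, led by Atad3a, a nucleoid-associated ATPase, at 224 ± 20.1 CPM in KO-labelled stimulated and 30.7 ± 2.38 CPM in unstimulated cells (edgeR adjusted p = 2.6e-20). Rrm2b, a subunit of ribonucleotide reductase used outside the S phase, fell to 14.5 ± 2.15 against 39.4 ± 4.35 CPM (adjusted p = 1.7e-12). Of 22 genes of mitochondrial transcription and RNA processing, 19 rose and 0 fell in KO-labelled and 18 rose and 1 fell in WT cells, and of 21 for translation 19 rose in KO-labelled and 17 in WT cells with none lower. Tbrg4, an RNA-binding FASTK family protein, stood at 206 ± 11.2 against 35 ± 2.75 CPM in KO-labelled cells (adjusted p = 6.3e-20), and Gfm1, a mitochondrial elongation factor, at 123 ± 12.3 against 32.4 ± 3.54 CPM (adjusted p = 3.2e-17).

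Among 20 textbook ERR-alpha targets 19 rose in KO-labelled and 17 in WT cells, with medians of 1.22 and 0.7, although Esrra did not pass. Cycs, which encodes cytochrome c, reached 91.3 ± 12.5 CPM in KO-labelled stimulated cells, against 13 ± 0.794 CPM unstimulated (edgeR adjusted p = 2.4e-17), and 72.4 ± 5.28 against 19.6 ± 4.59 CPM in WT (adjusted p = 1.7e-13). Idh3a, a subunit of isocitrate dehydrogenase, reached 259 ± 21.6 against 62.5 ± 4.56 CPM in KO-labelled cells (adjusted p = 1.5e-16). Of 18 textbook NRF1 or GABP targets 18 rose in KO-labelled and 16 in WT cells, among them Vdac1, the outer membrane channel, at 347 ± 33.7 against 95.3 ± 9.39 CPM in KO-labelled cells (adjusted p = 1.1e-16). Import and dynamics genes moved furthest, with medians of 2.63 in KO-labelled (20 of 21 rose) and 1.9 in WT cells (18 of 21). The chaperonin gene Hspd1 stood at 1630 ± 130 against 132 ± 9.8 CPM in KO-labelled cells (adjusted p = 8.6e-21). For the 5 lists from transcription to import, the median stayed above 0 with library totals, with upper-quartile factors, without WT unstimulated replicate 1, without KO-labelled replicate 2 in all conditions and with the unstimulated share subtracted.

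**Figure D3:**
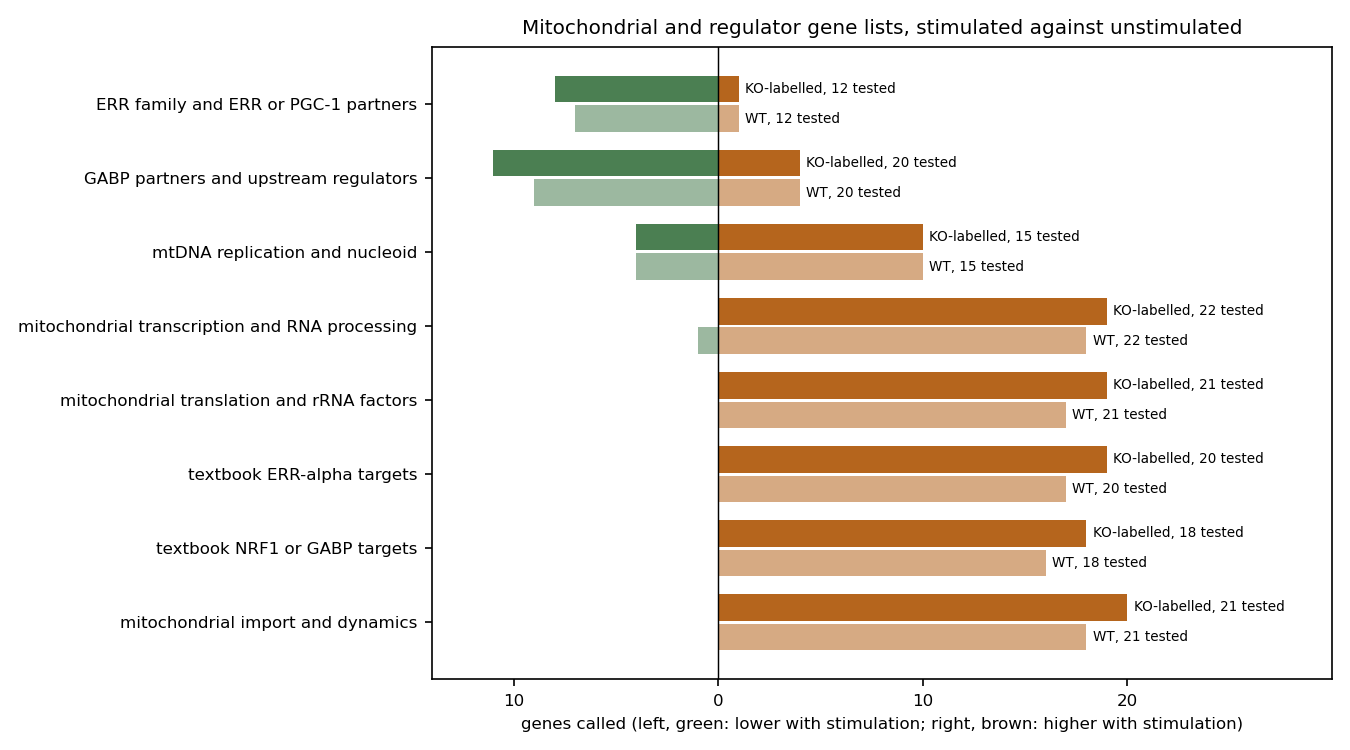
Number of genes called lower (left of 0) and higher (right of 0) with stimulation in each of the 8 gene lists, KO-labelled above WT (paler). The 2 lists of partners and upstream regulators hold more genes that fell, while the 6 mitochondrial lists hold more that rose, for example 18 of 18 NRF1 or GABP targets in KO-labelled cells.

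With the compounds fewer genes of these lists were called than with stimulation, as over all genes. With XCT790, 6.2 percent of all genes were higher and 5.07 percent lower in KO-labelled cells, and 8.4 percent higher and 20.2 percent lower in WT cells. In KO-labelled cells given XCT790, 8 of 22 transcription and RNA processing genes, 5 of 21 translation genes, 7 of 21 import genes and 4 of 20 ERR-alpha targets were lower than in stimulated cells, and 1 ERR-alpha target was higher. In the other lists 1 of 18 NRF1 or GABP targets and 1 of 15 replication and nucleoid genes were lower. None of 12 ERR or PGC-1 partners was called, and 1 of 20 GABP partners and upstream regulators was higher. The median log2 fold change of the import genes was -0.27, beside 0.02 over all genes. Idh3a had 194 ± 18 CPM with XCT790 and 259 ± 21.6 CPM without (edgeR adjusted p = 0.0074), Cycs 65.8 ± 9.87 and 91.3 ± 12.5 CPM (adjusted p = 0.012). The ERR-alpha target that rose was Etfdh, an electron-transfer oxidoreductase of the inner membrane, at 44.8 ± 0.5 and 38.5 ± 2.91 CPM (edgeR adjusted p = 0.034). In WT cells given XCT790, 2 ERR-alpha targets were higher and 1 lower, and 4 transcription genes were higher and none lower. Of the other WT lists, 4 replication genes were higher and 3 lower, and 1 translation gene was higher and 1 lower. Only higher were 2 NRF1 or GABP targets and 1 import gene. Only lower were 2 ERR or PGC-1 partners and 3 GABP partners and upstream regulators. With the unstimulated share subtracted from the WT stimulated libraries, 1 ERR-alpha target was higher and 1 lower, and 1 transcription gene was higher and 3 lower. That step shifts genes that rose with stimulation downward by construction, so these counts cannot show the direction with XCT790. As deposited, Etfdh was among the higher targets in WT cells too, at 45.3 ± 1.24 with XCT790 and 35.8 ± 2.86 CPM without (adjusted p = 0.00026).

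With CompA, 10.2 percent of all genes were higher and 9.11 percent lower in KO-labelled cells, and 11.6 percent higher and 21.3 percent lower in WT cells. In KO-labelled cells 11 of 22 transcription genes and 12 of 21 import genes were lower and none higher, and among ERR-alpha targets 5 were lower and 1 higher. In the other lists 6 of 21 translation genes, 4 of 15 replication genes, 2 of 18 NRF1 or GABP targets and 1 of 12 ERR or PGC-1 partners were lower, with none higher. Among 20 GABP partners and upstream regulators 3 were higher and 1 lower. The median of the import genes was -0.42, beside 0.03 over all genes. Timm9, a small chaperone of the intermembrane space, had 40.2 ± 3.37 CPM with CompA and 65.2 ± 7.21 CPM without (edgeR adjusted p = 0.00014). In WT cells 8 of 20 ERR-alpha targets and 5 of 18 NRF1 or GABP targets were higher and none lower, for example the citrate synthase gene Cs at 479 ± 14.7 with CompA and 375 ± 13.1 CPM without (adjusted p = 0.0024). With the unstimulated share subtracted from the WT stimulated libraries these counts became 1 higher and 3 lower, and 0 higher and 1 lower, and 8 import genes were lower. That step shifts genes that rose with stimulation downward by construction, so these counts cannot show the direction with CompA. As deposited, 4 ERR or PGC-1 partners were lower and none higher in WT cells with CompA. Of GABP partners and upstream regulators 2 were higher and 5 lower, and of transcription genes 4 were higher and 1 lower. Of translation genes 1 was higher and 2 lower, and the replication and import lists each had 1 higher and 1 lower. Rxra, a nuclear receptor partner, fell with CompA in both genotypes, to 20.8 ± 2.1 against 36.6 ± 4.94 CPM in KO-labelled (adjusted p = 0.00021) and to 18.2 ± 1.83 against 47.6 ± 7.31 CPM in WT cells (adjusted p = 8e-09).

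Before stimulation the target lists were lower in KO-labelled than in WT cells. Of 18 NRF1 or GABP targets 18 were lower (median log2 difference -0.57, beside -0.08 over all genes), of 20 ERR-alpha targets 15 (median -0.35) and of 21 import genes 11 (median -0.37). Over all genes 23.6 percent were lower. Their rise with stimulation was called larger in KO-labelled cells for 18, 14 and 15 genes. Over all genes the change was called more positive there for 17.2 percent. The list counts rested in part on 1 library, WT unstimulated replicate 1. Of its group it had the lowest TMM factor (0.927) and the highest share of ambiguous reads (2.32 percent). Its sum of 4 erythroid markers was 279 CPM, against 34.2 to 56.2 CPM in the other WT unstimulated libraries. In KO-labelled unstimulated libraries that sum was 7.43 to 165 CPM. The part of these traits was not tested. Without WT unstimulated replicate 1, the lower genes numbered 5, 5 and 0 before stimulation, and the larger rises 13, 9 and 9. Calls over all genes, in both directions, then fell from 4454 to 2060 and from 4161 to 2669. With library totals, which shifted the median of all genes between the unstimulated groups to 0.13, the lists had 11, 7 and 4 genes lower, with 2 ERR-alpha targets and 3 import genes higher. Most of all genes called with library totals were higher there, as given at the end. The shares of all genes called lower in these 2 settings are not given here. With the unstimulated share subtracted from the WT stimulated libraries, 3, 0 and 0 of the larger rises remained called, while calls over all genes fell from 4161 to 905. That step widens the WT change by construction, so the lost calls cannot show whether the genotypes differ. The part of the unequal myeloid content in these differences was not tested.

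Across the 32 libraries the genes fell into patterns that are described here by Pearson's r of log2 CPM, without a test, since libraries share groups and scaling. Tfam, Tfb1m and Tfb2m varied together (r of 0.93 for Tfam with Tfb1m, 0.93 for Tfam with Tfb2m and 0.92 for Tfb1m with Tfb2m), and also within groups (r of deviations from group means 0.65, 0.47 and 0.68). Pprc1 followed Tfb2m across all libraries (0.92) but not within groups (-0.47). Esrra had an r of -0.22 with Tfam across libraries and 0.62 within groups. Ppargc1b ran opposite to Tfam, at -0.76 across libraries and -0.63 within groups.

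**Figure D4:**
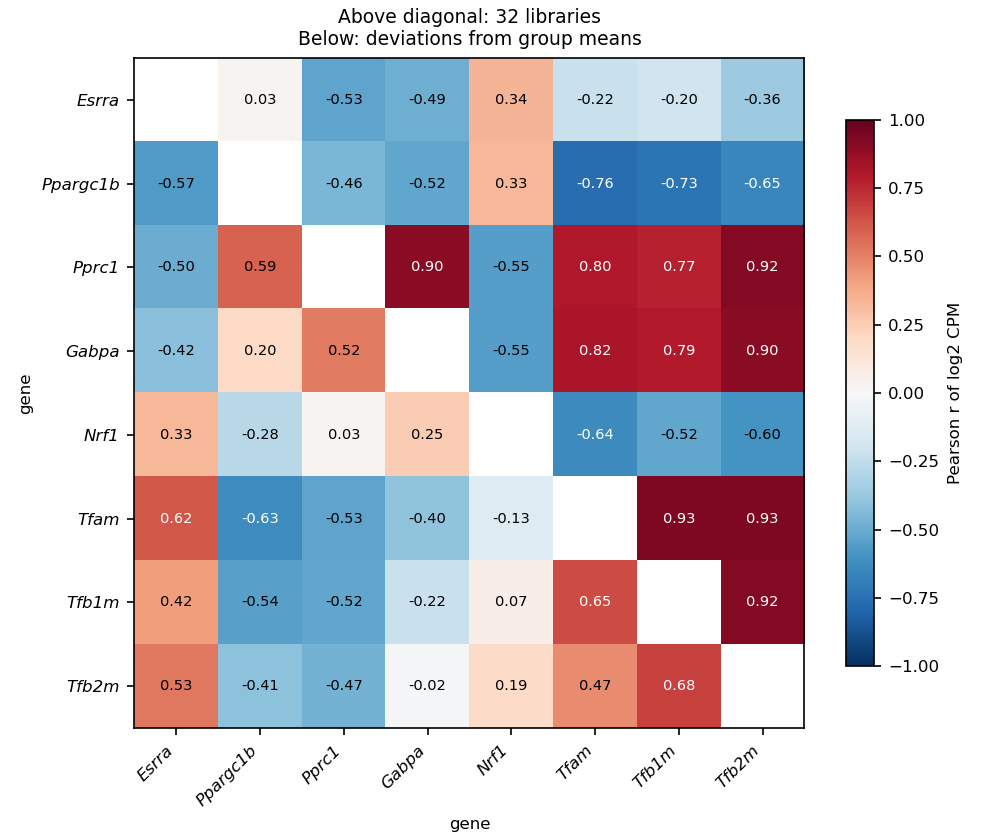
Pearson's r between the 8 genes, from log2 CPM of 32 libraries above the diagonal and from deviations from the group means below it. Colour runs from -1 to 1; Tfam, Tfb1m and Tfb2m are positive with each other on both sides of the diagonal, while Pprc1 with Tfam changes sign (0.8 above, -0.53 below).

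Among the 8199 genes that averaged 10 CPM or more, the pattern most like that of Esrra was that of Mus81, a structure-specific endonuclease gene, with r = 0.847, followed by 5031439G07Rik (0.806), Mitd1 (0.797), Pttg1 (0.78) and Slc25a40 (0.749). Pprc1 was most like Mybbp1a (0.992), Utp20 (0.991) and Sdad1 (0.991), and these stayed alike within groups (0.91, 0.94 and 0.93). Tfb2m was most like Wdr36 (0.991), Tmem183a (0.99) and Hnrnpc (0.989). Tfam was most like Fkbp3 (0.983), Rad1 (0.981) and Vdac3 (0.979), and Tfb1m like Ufm1 (0.958), C1d (0.955) and Mrpl32 (0.955). Gabpa was most like Cdc40 (0.955), Ccdc47 (0.949) and Taf4b (0.94). Values were lower for Nrf1, with Rassf1 (0.891), Rgs2 (0.886) and Smg9 (0.877), and for Ppargc1b, with Supt5 (0.885), Atrx (0.876) and Map3k4 (0.873). For Nrf1 and Rassf1 the r within groups was 0.33.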

How the data were processed

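The authors deposited, for each library, a table of raw counts by gene symbol. Per the submitters' processing notes, Trimmomatic 0.36, HISAT2 2.1.0, SAMtools, HTSeq 0.9.1, R 3.4.4 and DESeq2 1.18.1 were used with the mm10 build. No source used here gives the counter's settings or the annotation. The 5 summary lines that name no gene stayed out of library sizes (no feature 5.31 to 13.3 percent of listed reads, ambiguous 1.1 to 2.32 percent). Reads from overlapping genes can be misassigned or left uncounted.

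These counts entered edgeR 4.0.16 under R 4.3.3 (with limma 3.58.1), with its filter on low counts at the default, TMM factors of 0.91 to 1.22 and quasi-likelihood F tests. All 32 libraries entered 1 fit with 24 residual degrees of freedom, 19 contrasts were drawn, and p-values were adjusted by Benjamini-Hochberg over 12332 genes. Called means an adjusted p below 0.05. Levels are TMM-scaled CPM. The procedure was run on simulated counts with few changed genes and the same relative spread for every gene. These data differ in both, so that check does not measure the error rate here. The members and gene lists were chosen with earlier results of these data known. Within the lists, the genes with the smallest adjusted p were named. DESeq2 1.42.0, other scalings and filters, a fit of only the groups compared and omission of single libraries were alternatives. All 48 pairs of replicates differed by more than sampling noise.

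Libraries were grouped into runs by 4 consecutive numbers in the titles. Deviations from group means correlated between same-run libraries at 0.17 to 0.77 in KO-labelled cells; in WT all did for unstimulated with stimulated cells (0.43 to 0.63) and XCT790 with CompA (0.22 to 0.62). In these comparisons the run pairs the libraries. Genes encoded in mitochondrial DNA were not analysed here. Coordinates are GRCm38 (mm10), 1-based.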

Additional observations from a re-analysis of the deposited data

Results flagged for a closer look

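Of 64 sets of 4 libraries (8 genes in 8 groups), 2 held a library far from the other 3, where chance gives about 1 in 20. Esrra in KO-labelled stimulated cells had 42.9 CPM in replicate 1 and 32 to 33.7 CPM in the others. Tfam in WT cells with CompA had 139 CPM in replicate 2 and 145 CPM in each of the others. The response of Tfam to stimulation differed between the genotypes by 0.39 on the log2 scale, larger in KO-labelled than in WT cells (edgeR adjusted p = 0.013), by a test of the difference itself. That call was lost in 4 of 25 alternatives, which are given above. Between the genotypes Tfam differed by -0.33 in unstimulated and by 0.06 in stimulated cells (edgeR adjusted p = 0.0042 and 0.61).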

How the results depend on the processing

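Of 50 called member results, 35 kept their call and direction under every alternative run for them. Over 2632 alternatives for single genes (42 settings), none reversed a call, 41 ended a call and 65 added a call; the cause of these changes was not tested. The number of members called moved by more than 1.5 times as follows; in other comparisons it moved by less or not at all. With library totals it was 2 for XCT790 in WT, 0 for genotype in unstimulated cells, 1 for genotype with CompA and 0 for stimulation by genotype. With no filter on low counts it was 2 for XCT790 in WT, 1 for XCT790 against CompA in WT and 1 for XCT790 by genotype; with at least 1 CPM in 4 libraries, 2 for XCT790 in WT and 1 for XCT790 by genotype. DESeq2 called 2 for XCT790 in each genotype, 2 for CompA in WT, 1 for genotype with XCT790, 1 for genotype with CompA, and 2 each for XCT790 by genotype and CompA by genotype. The fit of only the groups compared called 0 for XCT790, CompA and XCT790 against CompA in KO-labelled cells, 2 for CompA in WT, and 0 for genotype in unstimulated cells and for stimulation by genotype. The replicate block (run) called 2 for XCT790 in WT, CompA in WT, stimulation by genotype and XCT790 by genotype, and 1 for CompA by genotype; in KO-labelled cells it changed no member call. Subtracting the unstimulated share left 0 for stimulation by genotype. Leaving out 1 library gave 1 to 2 for XCT790 in WT, 0 to 1 for XCT790 against CompA in WT, 0 to 3 for genotype in unstimulated cells, 0 to 3 for stimulation by genotype, and 0 to 2 each for XCT790 by genotype and CompA by genotype.

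Counts over all genes moved by more than 1.5 times in the fit of only the groups compared: XCT790 in KO-labelled 240 (against 1390), CompA in KO-labelled 860 (2378), XCT790 against CompA 73 in KO-labelled (400) and 2854 in WT (1161), genotype unstimulated 2294 (4454), genotype stimulated 1438 (3111) and stimulation by genotype 2394 (4161). With the share subtracted they were 835 for XCT790 in WT (3527), 2675 for CompA in WT (4047), 741 for genotype stimulated and 905 for stimulation by genotype. XCT790 by genotype and CompA by genotype then had 0 genes called by edgeR (3049 and 2661 as deposited), 332 and 409 at an unadjusted p under 0.05, and 5 and 1 by DESeq2. With the block, CompA by genotype had 4161 (2661). DESeq2 called 619 for XCT790 against CompA in KO-labelled cells. Without WT unstimulated replicate 1, genotype unstimulated had 2060 and stimulation by genotype 2669. Leaving out 1 library also gave 887 without KO-labelled stimulated replicate 1 and 771 without KO-labelled XCT790 replicate 3 for XCT790 in KO-labelled cells. For XCT790 against CompA it gave 228, 265 and 186 in KO-labelled cells (without XCT790 replicate 1 or 3 or CompA replicate 4) and 751 and 749 in WT (without XCT790 replicate 1 or 3). Genotype with XCT790 (1173) had 750 without KO-labelled XCT790 replicate 3 and 735 and 660 without WT XCT790 replicate 1 or 3, genotype with CompA (950) had 626 without KO-labelled CompA replicate 3 and 586, 549 and 591 without WT CompA replicate 1, 3 or 4, and CompA by genotype had 1772 without WT stimulated replicate 2. Library totals moved the share of higher genes among those called, for genotype unstimulated to 71.7 percent (34.6), stimulation by genotype to 22 (51.1), stimulation in KO-labelled to 37.5 (48.1), XCT790 in WT to 16.9 (29.4), XCT790 against CompA in KO-labelled to 44.2 (60.8), XCT790 against unstimulated in KO-labelled to 38.2 (50.1), CompA against unstimulated in KO-labelled to 39.4 (49.9), CompA by genotype to 82.7 (72.2) and genotype with CompA to 87.4 (75.6). Upper-quartile factors gave 36.4 percent for stimulation in WT (47.1). Ppargc1b, with a mean of 4.08 to 6.81 CPM per group, was the member measured with the fewest counts.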
